A study of Homo sapiens with 6 samples.

Results

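The 10 genes described here encode the parts of the mTOR complexes and the regulators that lie next to them: DEPTOR, DDIT4, MTOR, RPTOR, RICTOR, MLST8, AKT1S1, TSC1, TSC2 and RHEB. They were chosen by symbol through the pairing of transcripts and genes in the authors' deposited table, and each had 1 Ensembl gene ID. They are 10 of 63677 gene IDs and hold 122 of 215170 transcripts, of which 119 were above 0 in at least 1 library. All 10 passed the minimum of 1 TPM on average, so each member was tested. TPM is an abundance per transcript length and a share of its library, with the same sum in each library.

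The protein kinase mTOR works in 2 complexes. In mTORC1 it is joined by RAPTOR (the product of RPTOR), MLST8, PRAS40 (AKT1S1) and DEPTOR, and this complex turns on protein synthesis and restrains autophagy when amino acids and growth factors are present. In mTORC2 it is joined by RICTOR, MLST8 and DEPTOR, and this complex phosphorylates AKT and SGK1. The small GTPase RHEB switches mTORC1 on at the lysosome, the TSC1 and TSC2 proteins keep RHEB inactive, and REDD1 (DDIT4), a protein made under stress, acts through the TSC complex to lower mTORC1 activity. DEPTOR binds mTOR and inhibits it, and it is known as a gene with high levels in a subset of multiple myelomas. Che-1, the protein in the title of the series, is known as a factor that acts on the transcription of DEPTOR and DDIT4 in myeloma cells.

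The libraries were made from total RNA of KMS27, an established human myeloma line of plasma cell origin. One group was labelled wild type (3 libraries), and the other group was labelled as cells that overexpress HA-TAZ (3 libraries), which is the Hippo pathway coactivator TAZ, encoded by WWTR1, with a short HA peptide tag. The deposited table names the second group by TAZ and a number, used here as HA-TAZ 1 to 3. Its other 3 columns carry the name scr, which is in no label, and by elimination were taken as wild type. They are lettered control a to c, because no column could be matched to a given wild type sample. HA is also part of the wild type titles, and neither a construct in those cells nor the vector, promoter, number of clones or duration of the overexpression is given in the sources used here. Nothing in the labels says that the 3 libraries of a group came from separate cultures, so the p-values measure the spread between these samples, which may be technical.

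WWTR1 was at 293 to 306 TPM in HA-TAZ and at 1.69 to 2.69 TPM in control libraries. All 9 plasma cell markers examined were at or above 1 TPM on average, and their summed level was 2785 to 3217 TPM in HA-TAZ and 4270 to 4825 TPM in control libraries, most of it from the immunoglobulin joining chain gene IGJ. Of the markers of other cells, 0 of 4 B cell, 0 of 3 T cell, 1 of 3 myeloid (CSF1R), 0 of 3 erythroid and 1 of 3 stromal or epithelial genes (COL1A1) reached that level, and none of these markers was at 0 in all 6 libraries. Their summed levels in HA-TAZ and control libraries were 0.346 to 0.912 and 0.607 to 0.766 TPM for B cells, 0.0476 to 0.167 and 0.386 to 0.559 TPM for T cells, 1.68 to 1.93 and 1.91 to 2.20 TPM for myeloid cells, 1.11 to 2.20 and 0.798 to 1.45 TPM for erythroid cells, and 1.77 to 2.01 and 1.39 to 2.88 TPM for stromal or epithelial cells. The plasma and T cell sums were lower in HA-TAZ without overlap, and their part in the results below was not tested. Not every plasma cell marker followed its sum. SLAMF7 was higher in HA-TAZ without overlap (6.55 to 7.78 TPM, against 3.495 to 4.51 TPM in control libraries), and SDC1 overlapped between the groups. The other plasma cell markers were lower in HA-TAZ without overlap. These marker levels and sums are TPM as deposited, and the markers were not compared after the scaling described next. As background, 43.6% of all tested genes were lower in every HA-TAZ library without overlap on the deposited scale. Libraries were brought to a common scale by median-of-ratios factors, from 0.866 to 0.967 for HA-TAZ and from 1.06 to 1.21 for control libraries, and scaled TPM means TPM divided by that factor. This choice moves every gene: over the 22651 genes tested, the median difference on the log2 scale was −0.03 with scaled TPM and −0.27 as deposited. Both scales are therefore given for each member, and fold changes are HA-TAZ over control on the log2(value + 1) scale. The depth of a single library is unknown. The means in the authors' deposited table imply from 2485 estimated counts per library for MLST8 to 11776 for MTOR, which corresponds to a counting error of 2.01% and 0.922%.

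Per length, RHEB was the most abundant of the 10 messages in both groups and TSC1 the least abundant. In control libraries the order of mean TPM as deposited was RHEB (125 ± 9.93, SD, n = 3), DDIT4 (74.9 ± 3.56), DEPTOR (56.5 ± 3.76), MLST8 (46.2 ± 3.64), TSC2 (33.4 ± 3.57), MTOR (26.8 ± 0.951), RICTOR (26.7 ± 2.39), AKT1S1 (18.9 ± 0.663), RPTOR (15.6 ± 1.03) and TSC1 (14.8 ± 2.61). The ranges of MTOR and RICTOR overlapped, as did those of RPTOR and TSC1, and the other neighbours were apart. In HA-TAZ libraries RHEB (100.3 ± 7.75 TPM, SD, n = 3) and DDIT4 (74.1 ± 2.57 TPM) again led. DEPTOR (37.0 ± 2.27 TPM), MLST8 (36.5 ± 2.44 TPM) and TSC2 (33.4 ± 3.06 TPM) followed with overlapping ranges, then MTOR (25.4 ± 1.62 TPM). AKT1S1 (18.7 ± 0.562 TPM), RICTOR (17.5 ± 2.13 TPM) and RPTOR (15.4 ± 1.02 TPM) overlapped in turn, and TSC1 was last (11.5 ± 0.994 TPM). The inhibitor DEPTOR was thus above MLST8 and TSC2 in every control library and level with them in HA-TAZ, and RICTOR was level with MTOR in control and below it in HA-TAZ.

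**Figure D1:**
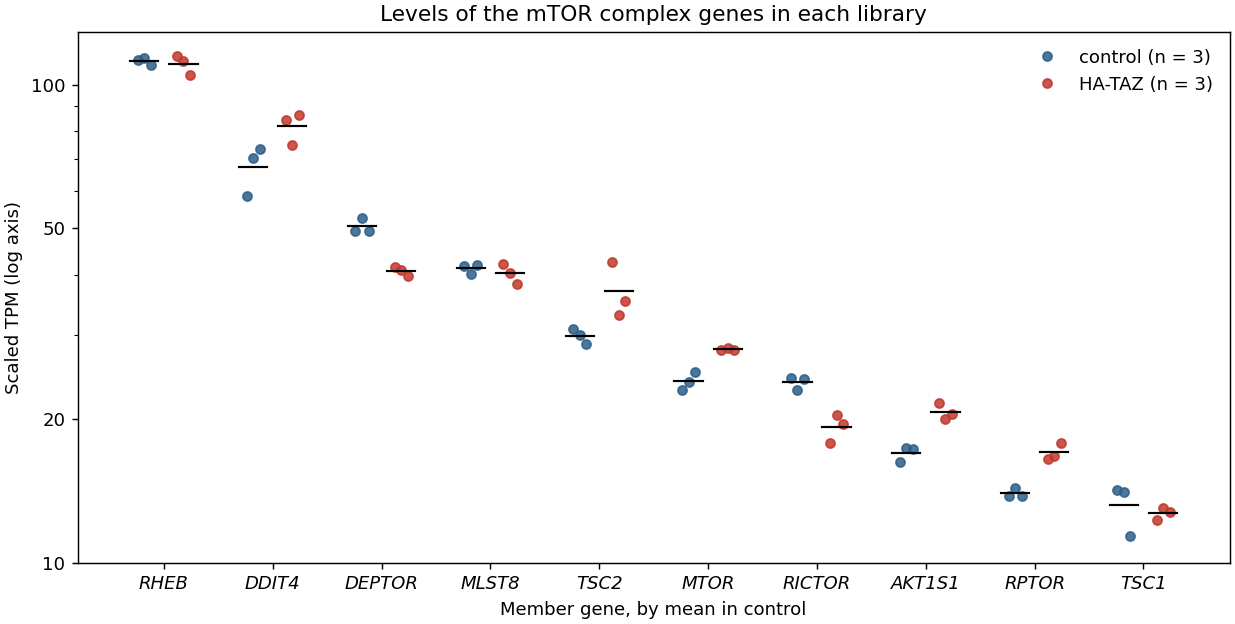
Scaled TPM (log axis) of the 10 member genes in each library. Points are libraries (3 control, 3 HA-TAZ), bars are means, and genes are ordered by their control mean. DEPTOR and RICTOR lie lower in HA-TAZ with no overlap, DDIT4, MTOR, RPTOR, AKT1S1 and TSC2 lie higher with no overlap, and MLST8, TSC1 and RHEB overlap.

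Of the 10 members, 3 changed in the test over all genes (limma, Benjamini-Hochberg adjusted p under 0.05): DEPTOR fell, and RPTOR and AKT1S1 rose. Among all tested genes 7.29% were called, 4.67% higher and 2.63% lower in HA-TAZ, so 2 of 10 higher and 1 of 10 lower stand beside those shares. At an unadjusted p under 0.05 there were 5 members higher and 2 lower, beside 16.6% of all tested genes higher and 14.1% lower. With scaled TPM the groups did not overlap for 7 members, 5 higher and 2 lower, where 20.2% of all tested genes were higher and 18.3% lower in every HA-TAZ library. The median log2 fold change of the members was 0.10, beside −0.03 for all tested genes and 0.06 for the protein-coding genes among them. With TPM as deposited 2 members were called, DEPTOR and RICTOR, both lower, where 14.7% of all genes were called. On that scale the groups did not overlap for 4 members, all lower (DEPTOR, RICTOR, MLST8 and RHEB), against 43.6% of all genes, and the median of the members was −0.20 beside −0.27.

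**Figure D2:**
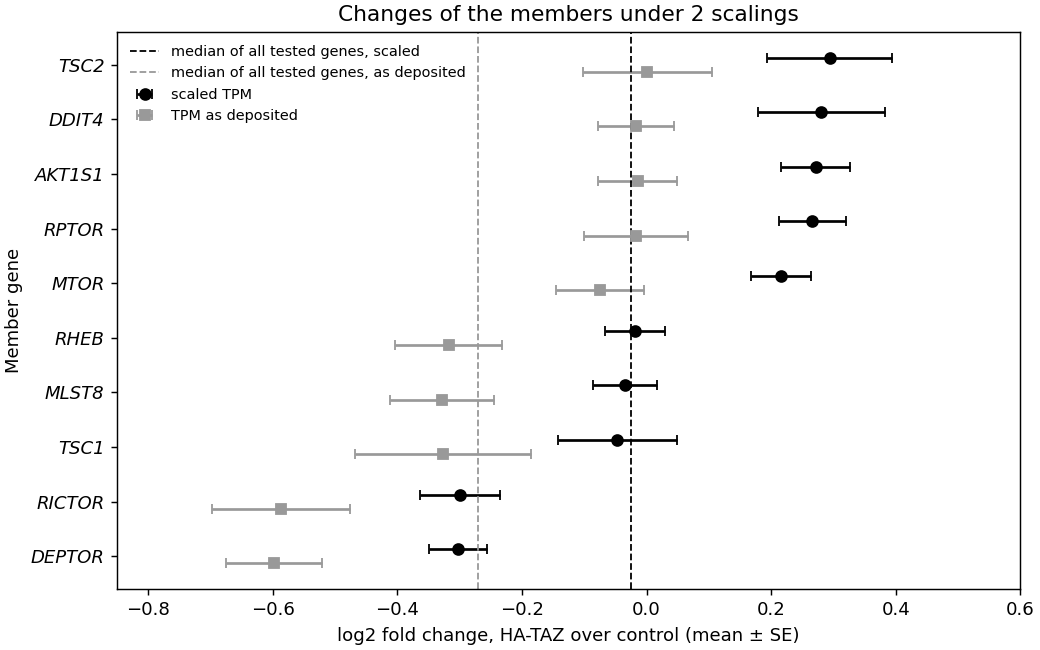
Log2 fold change (HA-TAZ over control, mean ± SE from limma, 3 libraries per group) of each member with scaled TPM (black circles) and with TPM as deposited (grey squares). Dashed lines are the medians of all tested genes on each scale (−0.03 and −0.27). DEPTOR and RICTOR lie left of the median on both scales, and RPTOR, AKT1S1, MTOR, DDIT4 and TSC2 lie right of it on both.

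DEPTOR, the inhibitor that sits in both complexes, fell in HA-TAZ libraries. Its TPM as deposited was 36.0, 39.6 and 35.4 in HA-TAZ 1, 2 and 3, and 59.7, 57.5 and 52.3 in control a, b and c. The highest HA-TAZ library was well below the lowest control, and the groups did not overlap. On the scaled values DEPTOR was at 41.6, 40.9 and 39.8 in HA-TAZ and at 49.3, 52.7 and 49.5 in control libraries, with means of 40.7 ± 0.915 and 50.5 ± 1.89 (SD, n = 3 each). This is a log2 fold change of −0.30 (SE 0.046, 95% interval −0.42 to −0.19, limma, Benjamini-Hochberg adjusted p = 0.0285), or 18.9% less. With TPM as deposited it was −0.60 (limma, Benjamini-Hochberg adjusted p = 0.0239). In RNA of a whole culture, fewer cells with the message and less of it per cell cannot be told apart. Leaving out any 1 of the 6 libraries kept the direction and gave adjusted p-values from 0.0564 to 0.102 (limma, Benjamini-Hochberg), so the call rests on all 6, and limma without the intensity trend gave 0.0600.

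A single transcript, ENST00000286234.5, held 98.3% of the TPM of DEPTOR in both groups. Its mean was 36.3 ± 2.35 TPM over HA-TAZ libraries and 55.5 ± 3.80 TPM over controls (SD, n = 3 each). Its scaled log2 fold change was −0.30 (limma over all 57448 tested transcripts, Benjamini-Hochberg adjusted p = 0.0913), which did not pass. In the authors' deposited table the same transcript had a natural log effect of −0.197 (SE 0.0495, q-value 0.00312). The 3 genes whose 6 scaled values followed those of DEPTOR most closely were FBXO11, SH2D3C and SH3KBP1, with root mean square distances of 0.0178, 0.0207 and 0.0281 on the log2 scale, among 12603 genes. FBXO11, an F-box protein gene, was at 31.9, 31.7 and 30.2 scaled TPM in HA-TAZ and 37.9, 39.3 and 38.2 in control libraries.

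DDIT4, the stress-made inhibitor that acts through the TSC complex, did not pass the test. Its TPM as deposited was 72.8, 72.3 and 77.0 in HA-TAZ 1, 2 and 3, and 70.9, 76.6 and 77.4 in control a, b and c. The 2 groups covered the same range on this scale. After scaling it was at 84.1, 74.8 and 86.5 in HA-TAZ and at 58.6, 70.3 and 73.2 in control libraries. Here each HA-TAZ library was above each control, but HA-TAZ 2 lay close to control c. The log2 fold change was 0.28 (SE 0.10, 95% interval 0.03 to 0.53, limma, Benjamini-Hochberg adjusted p = 0.131), and with TPM as deposited it was −0.02. In the authors' deposited table the leading transcript ENST00000307365.3 had the effect 0.228 (SE 0.0832, q-value 0.0847). Among the genes nearest to DDIT4 by the same distance were SLC25A6, a mitochondrial ADP/ATP carrier gene (0.0127), and RSAD1 (0.0197).

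MTOR, the kinase of both complexes, was at 24.2, 27.2 and 24.8 TPM as deposited in HA-TAZ, and the controls read 27.8, 26.0 and 26.4 TPM. The groups overlapped. Scaled, it was at 27.9, 28.2 and 27.8 in HA-TAZ and 23.0, 23.8 and 25.0 in control libraries, without overlap. The log2 fold change of 0.22 (SE 0.048, 95% interval 0.10 to 0.33) missed the threshold (limma, Benjamini-Hochberg adjusted p = 0.0543), and with TPM as deposited it was −0.07. Among genes with at least 5 TPM on average the adjusted p was 0.0365 (limma, Benjamini-Hochberg), so its call depended on that minimum. The full-length coding transcript ENST00000361445.4 carried 76.0% of MTOR in HA-TAZ and 72.0% in control libraries. In the authors' deposited table it had the effect 0.229 (SE 0.0461, q-value 7.76e-05), the smallest among the member transcripts.

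MLST8, the subunit that both complexes also share, was at 36.6, 39.0 and 34.1 TPM as deposited in HA-TAZ, against 50.4, 43.9 and 44.2 TPM in the controls. These groups did not overlap, but after scaling they did, at 42.2, 40.3 and 38.3 against 41.6, 40.2 and 41.8. The scaled log2 fold change was −0.03 with a 95% interval from −0.16 to 0.09 (limma, Benjamini-Hochberg adjusted p = 0.679). With TPM as deposited it was −0.33 (limma, Benjamini-Hochberg adjusted p = 0.0501). Of its 36 transcripts, those not typed as protein-coding held 55.8 ± 8.89% of the TPM in HA-TAZ and 65.6 ± 8.97% in control libraries, with overlap. The processed transcript ENST00000561651.1 averaged 2.26 ± 0.153 TPM over HA-TAZ and 5.31 ± 0.766 TPM over control libraries (SD, n = 3 each), and its adjusted p of 0.0588 (limma, Benjamini-Hochberg) was the smallest of the member transcripts.

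RPTOR, which encodes the subunit that brings substrates to mTORC1, rose on the scaled values. It was at 16.5, 16.7 and 17.8 scaled TPM in HA-TAZ 1, 2 and 3, and at 13.8, 14.3 and 13.8 in control a, b and c. Every HA-TAZ library was above every control. The means were 17.0 ± 0.685 and 14.0 ± 0.317 (SD, n = 3 each), a difference of 0.27 ± 0.054 on the log2 scale (SE, limma, Benjamini-Hochberg adjusted p = 0.0461). With TPM as deposited RPTOR was at 14.3, 16.2 and 15.8 in HA-TAZ and 16.6, 15.6 and 14.6 in control libraries, the groups overlapped, and the log2 fold change was −0.02. AKT1S1, whose product PRAS40 is an inhibitory subunit and substrate of mTORC1, rose on the scaled values as well. It was at 21.6, 19.997 and 20.5 scaled TPM in HA-TAZ and at 16.2, 17.4 and 17.3 in control libraries, without overlap. Its log2 fold change was 0.27 ± 0.056 (SE, limma, Benjamini-Hochberg adjusted p = 0.0466). As deposited it was at 18.7, 19.3 and 18.2 TPM against 19.6, 18.9 and 18.3 TPM, with overlap and a log2 fold change of −0.01.

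Both rises are relative to the other genes: as deposited, RPTOR and AKT1S1 differed by less than the spread between libraries, while the median over all tested genes was −0.27 on the log2 scale. Leaving out any 1 of the 6 libraries kept both directions and gave adjusted p-values from 0.0891 to 0.124 for RPTOR and from 0.0789 to 0.140 for AKT1S1 (limma, Benjamini-Hochberg). Without a minimum level the adjusted p was 0.0688 for RPTOR and 0.0728 for AKT1S1, and among protein-coding genes alone it was 0.0513 for RPTOR (limma, Benjamini-Hochberg). In the authors' deposited table the leading RPTOR transcript ENST00000306801.3 had the effect 0.406 (SE 0.118, q-value 0.0165). That transcript held 42.5% of RPTOR in HA-TAZ and 35.6% in control libraries. The leading AKT1S1 transcript ENST00000391834.2, with 33.8% and 42.6% of the gene, did not rise (scaled log2 fold change −0.04, limma, Benjamini-Hochberg adjusted p = 0.816). Its effect in the authors' deposited table was −0.0150 (q-value 0.965). The smallest q-value of an AKT1S1 transcript there was 0.0628, for ENST00000391835.1 with an effect of 0.388. AKT1S1 shares exon sequence with other genes, among them TBC1D17 on the opposite strand (15.7 TPM on average), so its value is uncertain where reads could not be assigned.

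RICTOR, which encodes the subunit that defines mTORC2, was lower in HA-TAZ on both scales. Its TPM as deposited was 15.4, 19.7 and 17.4 in HA-TAZ 1, 2 and 3, and 29.4, 25.1 and 25.6 in control a, b and c. The groups were far apart, with the widest gap between HA-TAZ 1 and control a. On this scale RICTOR fell by 0.59 on the log2 scale (limma, Benjamini-Hochberg adjusted p = 0.0346). Scaled, it was at 17.8, 20.3 and 19.5 in HA-TAZ and at 24.4, 23.0 and 24.2 in control libraries, again without overlap. That log2 fold change of −0.30 (SE 0.064, 95% interval −0.46 to −0.14) missed the threshold (limma, Benjamini-Hochberg adjusted p = 0.0504). RICTOR passed among genes of at least 5 TPM (adjusted p = 0.0328) and among protein-coding genes alone (adjusted p = 0.00913, both limma, Benjamini-Hochberg). With protein-coding genes alone the factors also came from those genes, and RICTOR was at −0.37 there. It missed the threshold without a minimum level (0.0851), with a pseudocount of 0.1 (0.0515), without the trend (0.0735) and in each fit without 1 of the 6 libraries (0.0951 to 0.140, adjusted p by limma, Benjamini-Hochberg).

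The lower level of RICTOR was found in the sum of its coding and in the sum of its other transcripts, though not in each coding transcript. Transcripts typed as protein-coding were at 11.9, 12.05 and 10.5 scaled TPM in HA-TAZ and 13.1, 12.4 and 13.2 in control libraries, a ratio of means of 0.891. The remaining transcripts, among them retained introns, were at 5.87, 8.30 and 9.05 scaled TPM against 11.2, 10.6 and 11.1, a ratio of 0.705. Neither class overlapped between the groups (exact two-sided permutation p = 0.1 for each, the smallest that 3 against 3 libraries allow). The share of the remaining transcripts was 40.1 ± 6.73% in HA-TAZ and 46.0 ± 0.309% in control libraries (SD, n = 3 each), and overlapped because HA-TAZ 3 stood at 46.4%. A q-value under 0.05 was given in the authors' deposited table to 2 retained-intron transcripts of RICTOR, ENST00000510711.1 with an effect of −0.377 (q-value 0.00452) and ENST00000513566.1 with −0.470 (q-value 0.0461). The leading coding transcript ENST00000357387.3 had −0.132 (q-value 0.302) in the authors' deposited table. Its scaled log2 fold change was −0.20 (limma, Benjamini-Hochberg adjusted p = 0.257). The coding transcript ENST00000296782.5, with 11.3% of RICTOR in HA-TAZ and 9.13% in control libraries, showed no difference. Its scaled log2 fold change was −0.00017 (limma, Benjamini-Hochberg adjusted p = 0.999), and the authors' effect was 0.0183 (q-value 0.964). Among 7556 protein-coding genes 28% had a lower share of such transcripts in every HA-TAZ library, and the median difference in share was −2.85 percentage points. For all 10 members the groups overlapped in this share.

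**Figure D3:**
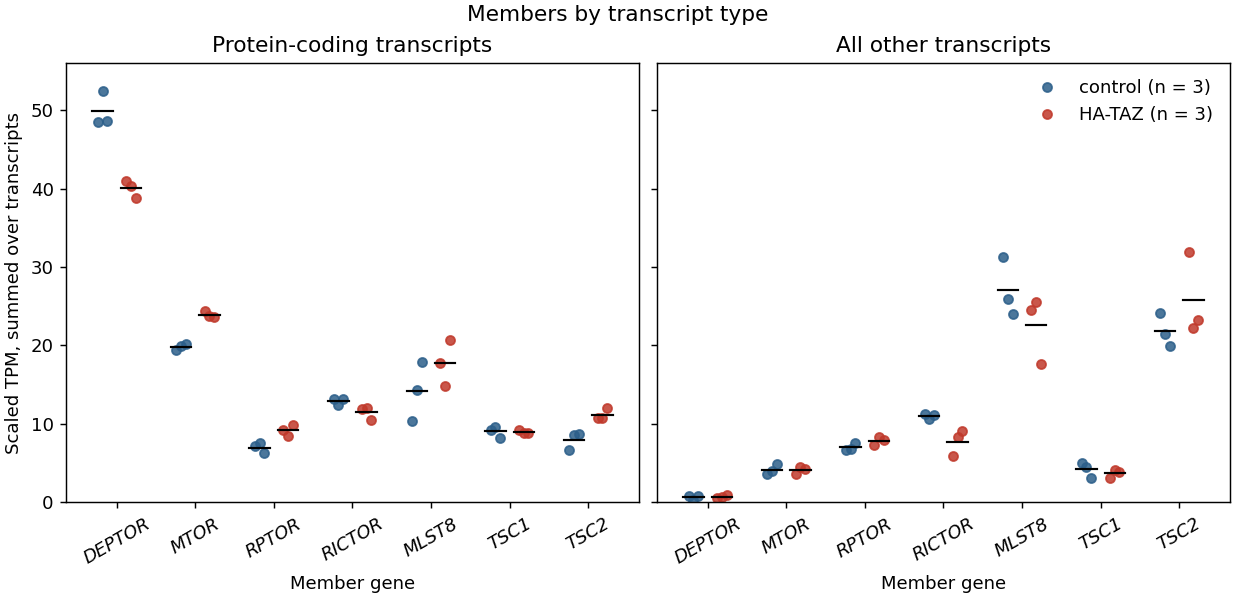
Scaled TPM summed over protein-coding transcripts (left) and over all other transcripts (right) of 7 members. Points are libraries (3 control, 3 HA-TAZ) and bars are means. RICTOR is lower in HA-TAZ in both panels, DEPTOR on the left alone, and MTOR, RPTOR and TSC2 are higher on the left, while their other transcripts overlap.

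Split in this way, the coding transcripts of MTOR were at 23.9 ± 0.405 scaled TPM in HA-TAZ and 19.8 ± 0.374 in control libraries (ratio 1.21), those of RPTOR at 9.15 ± 0.699 and 6.97 ± 0.655 (ratio 1.31), and those of TSC2 at 11.2 ± 0.766 and 7.95 ± 1.11 (ratio 1.405). None of these 3 overlapped between the groups (exact two-sided permutation p = 0.1 for each), and their other transcripts overlapped, with ratios of 0.982, 1.12 and 1.18. The coding transcripts of DDIT4 (ratio 1.23) and AKT1S1 (ratio 1.22) were also higher without overlap. As background, in 7556 protein-coding genes with at least 1 TPM in each class the coding transcripts were higher in every HA-TAZ library for 44.7% and lower for 6.97%, and the other transcripts were lower for 19.4%. For the 58 member transcripts tested one by one, 0 were called (limma, Benjamini-Hochberg), where 0.534% of all transcripts were, and at an unadjusted p under 0.05 there were 10 higher and 7 lower, beside 13.1% and 11.1% of all tested transcripts. With a minimum of 5 TPM the leading transcripts of DEPTOR and MTOR passed (adjusted p = 0.0467 for each), and among protein-coding genes alone that of DEPTOR did (adjusted p = 0.0460, limma, Benjamini-Hochberg). The authors' deposited table gave statistics for 99 of the member transcripts, and 7 of them (7.07%) had a q-value under 0.05, 4 higher and 3 lower, beside 5.68% of all transcripts with statistics. Besides those named above these were RPTOR transcripts ENST00000537330.1 and ENST00000574767.1, which have the same values in the authors' deposited table (effect 0.720, q-value 0.0207).

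A ratio of 2 genes within a library does not depend on the factor between libraries. DEPTOR per MTOR was 1.49, 1.45 and 1.43 in HA-TAZ 1, 2 and 3, and 2.14, 2.21 and 1.98 in control a, b and c. RICTOR per MTOR was 0.638, 0.723 and 0.702 in HA-TAZ and 1.06, 0.964 and 0.968 in control libraries. Both were lower in each HA-TAZ library, with means of 1.46 ± 0.0299 against 2.11 ± 0.119 for DEPTOR and 0.687 ± 0.0442 against 0.997 ± 0.0534 for RICTOR (SD, n = 3 each). The quotients of these means were 0.690 and 0.689. MLST8 per MTOR (1.44 ± 0.0686 against 1.72 ± 0.0753) and RHEB per MTOR (3.95 ± 0.175 against 4.68 ± 0.256) were lower without overlap too. These 4 of 9 ratios had an exact two-sided permutation p of 0.1, the smallest possible, and 0.225 after Benjamini-Hochberg adjustment over the 9. As background, 38.7% of all genes were lower relative to MTOR in every HA-TAZ library. RPTOR, AKT1S1, DDIT4 and TSC2 per MTOR overlapped, with quotients from 1.04 to 1.06, and so did TSC1 per MTOR (0.820).

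The subunits that tell the complexes apart were therefore compared directly. RICTOR per RPTOR was 1.08, 1.21 and 1.10 in HA-TAZ and 1.77, 1.60 and 1.75 in control libraries. The HA-TAZ libraries were lower without overlap, with means of 1.13 ± 0.0734 and 1.71 ± 0.0916 (SD, n = 3 each, exact two-sided permutation p = 0.1) and a quotient of 0.661. Relative to RPTOR, 46% of all genes were lower in every HA-TAZ library. These are ratios of messages and say nothing of the amounts of the assembled complexes.

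**Figure D4:**
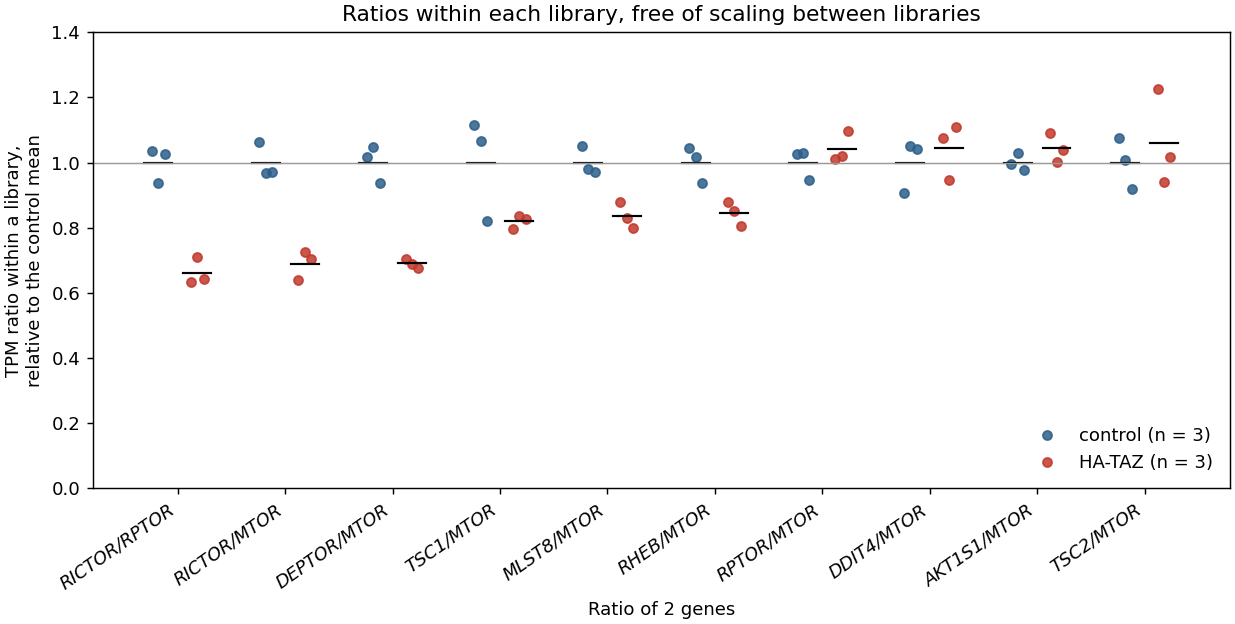
TPM ratios of 2 member genes within each library, divided by the mean ratio of the control libraries (points are 3 control and 3 HA-TAZ libraries, bars are means). RICTOR per RPTOR, RICTOR per MTOR and DEPTOR per MTOR lie lowest in HA-TAZ, at quotients of 0.661, 0.689 and 0.690, and the ratios of RPTOR, DDIT4, AKT1S1 and TSC2 to MTOR overlap between the groups.

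Of the brake on mTORC1 and its switch, no member passed the test. TSC1, the stabilising subunit of the TSC complex, was at 10.6, 12.6 and 11.3 TPM as deposited in HA-TAZ, against 17.2, 15.3 and 12.01 TPM in the controls. Control c fell into the HA-TAZ range while controls a and b lay above it. The scaled log2 fold change was −0.05 with a 95% interval from −0.28 to 0.19 (limma, Benjamini-Hochberg adjusted p = 0.769). TSC2, which carries the domain that acts on RHEB, was at 42.6, 33.0 and 35.3 scaled TPM in HA-TAZ and at 30.8, 29.96 and 28.6 in control libraries. HA-TAZ 1 stood above the other libraries, and the log2 fold change of 0.29 had an SE of 0.10 (limma, Benjamini-Hochberg adjusted p = 0.116). As deposited TSC2 was at 33.4 TPM in both groups on average. Its exons overlap those of PKD1 (31.8 TPM) and NTHL1 (17.4 TPM) on the opposite strand, and 69.4% and 73.2% of its TPM lay in transcripts that are not typed as protein-coding, so the level of TSC2 is uncertain. TSC1 per TSC2 was 0.348 ± 0.0545 in HA-TAZ and 0.442 ± 0.0395 in control libraries (SD, n = 3 each), with each HA-TAZ library below each control (exact two-sided permutation p = 0.1). The gap was narrow, with HA-TAZ 2 at 0.395 and control c at 0.397, and 39.3% of all genes were lower relative to TSC2 in every HA-TAZ library.

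RHEB, the switch itself, was at 99.2, 108 and 93.1 TPM as deposited in HA-TAZ, against 136, 124 and 116 TPM in the controls, without overlap. Scaled, it was at 115, 112 and 105 in HA-TAZ and at 112, 113 and 109.8 in control libraries, with overlap. The scaled log2 fold change was −0.02 with a 95% interval from −0.14 to 0.10 (limma, Benjamini-Hochberg adjusted p = 0.813). Its difference as deposited, −0.32 on the log2 scale, lay close to the median of all genes on that scale.

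Promoter sequences from RefSeq (GRCh38.p14) were found for 7 of the 10 members, with 2 start sites for TSC2. No window was examined for DEPTOR, MLST8 or AKT1S1, so the counts below do not cover these genes. Each window runs from 250 to 51 bases before the start and holds 200 bases, read on the strand of the gene. Shown are RPTOR, which rose, RICTOR, which was lower, and DDIT4, the stress-made inhibitor. Capitals mark matches on either strand to CCAAT (reverse ATTGG), the GC box GGGCGG (reverse CCGCCC) and the TATA box TATAAA (reverse TTTATA).
RPTOR, chr17:80544588-80544787, plus strand: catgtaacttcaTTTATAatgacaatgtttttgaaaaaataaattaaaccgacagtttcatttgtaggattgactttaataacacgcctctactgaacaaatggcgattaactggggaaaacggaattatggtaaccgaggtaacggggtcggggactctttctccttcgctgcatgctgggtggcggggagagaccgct
RICTOR, chr5:39074450-39074649, minus strand: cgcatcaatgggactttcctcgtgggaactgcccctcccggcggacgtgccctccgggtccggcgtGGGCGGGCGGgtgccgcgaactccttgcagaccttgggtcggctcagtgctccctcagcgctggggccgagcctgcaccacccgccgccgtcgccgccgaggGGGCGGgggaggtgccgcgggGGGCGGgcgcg
DDIT4, chr10:72273674-72273873, plus strand: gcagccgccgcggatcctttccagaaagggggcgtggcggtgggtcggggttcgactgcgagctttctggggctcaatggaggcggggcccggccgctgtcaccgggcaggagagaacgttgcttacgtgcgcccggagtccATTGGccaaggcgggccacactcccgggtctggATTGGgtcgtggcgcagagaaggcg
The RPTOR window holds 1 match to the TATA box letters, the RICTOR window 4 overlapping or separate GC box matches, and the DDIT4 window 2 CCAAT matches. Over the 8 windows of the members, 6 held a GC box, 3 a CCAAT and 1 a TATA box match, and 34.96%, 27.4% and 7.63% of 35116 promoter windows of the same length did. The letters GGAATG (reverse CATTCC), which the TEAD partners of TAZ are known to bind, were found in 0 of the 8 windows and in 9.71% of all promoters. A match is a description of letters, and no match says only that these letters are not in this window.

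Around the members, 76 further genes of the pathway were examined in 6 lists, which gave 72 tested gene IDs. Of these 5 rose (6.94%, beside 4.67% of all genes) and 5 fell (6.94%, beside 2.63%, limma, Benjamini-Hochberg). The median log2 fold change of the 72 was 0.13, beside 0.06 for all tested protein-coding genes. With TPM as deposited 1 of the 72 was called higher and 11 lower. On that scale 14.7% of all tested genes were called, and 7.84% of those calls were higher.

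In the amino acid branch, which reports nutrients to mTORC1 at the lysosome, 2 of 28 tested genes rose and 4 fell. Among the genes that fell were SESN1, a stress-induced inhibitor of the branch (15.9 ± 1.02 against 22.8 ± 1.65 scaled TPM, log2 fold change −0.49, adjusted p = 0.0307), ITFG2, a part of KICSTOR (−0.49, adjusted p = 0.0258), and WDR59, a part of GATOR2 (−0.37, adjusted p = 0.0293, all limma, Benjamini-Hochberg). The genes that rose were LAMTOR5, a Ragulator subunit (0.39, adjusted p = 0.0461), and NPRL2, a subunit of the inhibitory GATOR1 (0.35, adjusted p = 0.0416, both limma, Benjamini-Hochberg). The most abundant gene of the list, LAMTOR4, did not pass (0.22, limma, Benjamini-Hochberg adjusted p = 0.109).

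In the TSC complex, TBC1D7, which encodes a further subunit next to TSC1 and TSC2, rose from 14.4 ± 0.676 to 21.0 ± 2.23 scaled TPM (log2 fold change 0.51, limma, Benjamini-Hochberg adjusted p = 0.0343). It was the single gene of its list that was tested. Of 20 tested gene IDs of substrates and effectors, 2 rose and 1 fell. RPS6KB2, an S6 kinase of mTORC1, rose from 21.9 ± 1.96 to 33.0 ± 0.609 scaled TPM (0.57, limma, Benjamini-Hochberg adjusted p = 0.0189). SGK1, a kinase that mTORC2 phosphorylates, rose from 20.9 ± 0.408 to 29.3 ± 2.30 scaled TPM (0.47, limma, Benjamini-Hochberg adjusted p = 0.0256). PDCD4, a translation inhibitor that S6 kinase marks for degradation, fell from 82.4 ± 6.11 to 58.1 ± 2.98 scaled TPM (−0.50, limma, Benjamini-Hochberg adjusted p = 0.0250). RPS6, the ribosomal protein that S6 kinases phosphorylate, missed the threshold (0.26, limma, Benjamini-Hochberg adjusted p = 0.0525).

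The other 3 lists held 0 calls (limma, Benjamini-Hochberg). These were 4 genes of mTORC2 and of mTOR assembly with 2 higher at an unadjusted p under 0.05, 15 gene IDs of upstream regulators with 4 higher and 2 lower, and 4 genes of the ubiquitin ligase that degrades DEPTOR with 2 higher. At that unadjusted threshold 16.6% of all tested genes were higher and 14.1% lower. The most abundant gene was MAPKAP1, which encodes the SIN1 subunit of mTORC2, in the first of these lists (0.14, adjusted p = 0.10) and SKP1 in the last (0.23, adjusted p = 0.0741, both limma, Benjamini-Hochberg). With TPM as deposited all 5 falls were called again, but of the rises RPS6KB2 alone was (0.28, limma, Benjamini-Hochberg adjusted p = 0.0390). Leaving out 1 library, RPS6KB2 kept its call without control a or control c, PDCD4 without control c and SGK1 without HA-TAZ 3, with smallest adjusted p-values of 0.0238, 0.0374 and 0.0423, and the other 7 genes lost their call in each of the 6 fits (limma, Benjamini-Hochberg).

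**Figure D5:**
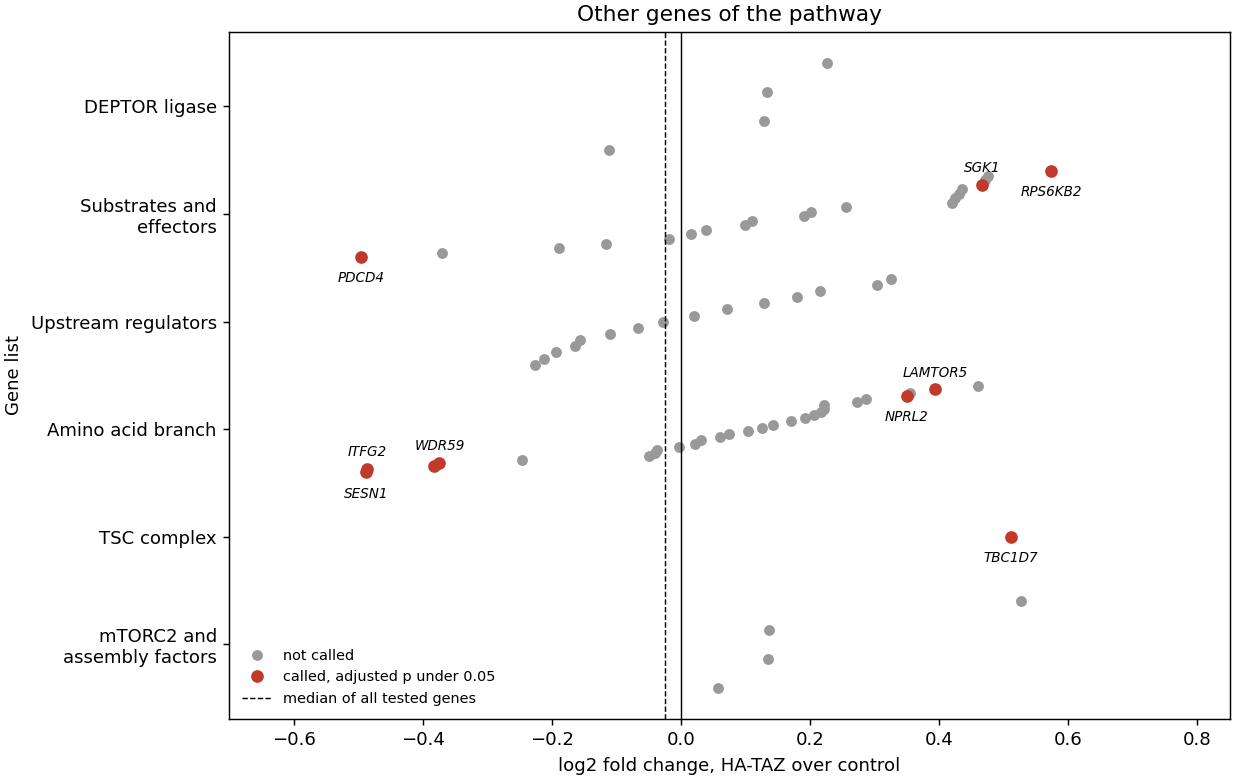
Log2 fold change (HA-TAZ over control, scaled TPM, 3 libraries per group) of 72 tested gene IDs in 6 lists of pathway genes, ordered by value within each list. Red points are called, those described in the text are named, and the dashed line is the median of all tested genes (−0.03). The 5 genes called lower lie between −0.50 and −0.37, and the 5 called higher between 0.35 and 0.57.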

How the data were processed

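Total RNA of 6 KMS27 libraries was depleted of ribosomal RNA, made into stranded libraries and sequenced from both ends, per the labels' protocols. The submitters' processing notes name FastQC, MultiQC, kallisto 0.46.0, sleuth 0.30.0 and the build GRCh37. The annotation release and the use of strand in quantification are not given in the sources used here. The authors deposited TPM per transcript and library, and a table of their own comparison with p-values and q-values, effects and means on a natural log scale, per the file headers.

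TPM was summed per Ensembl gene ID and divided by a median-of-ratios factor over 21512 tested genes above 0 in all libraries. The 22651 genes that average at least 1 TPM entered limma 3.58.1 (R 4.3.3, two-sided, variance trend by level) as log2(scaled TPM + 1). P-values were adjusted by Benjamini-Hochberg over all genes tested, and under 0.05 is called. A log2 scale with a pseudocount understates changes of low genes. The fit was tested on simulated data. Single values were compared by exact two-sided permutation over libraries. Tables and figures used Python 3.11.15, numpy 2.4.6, pandas 2.3.3, scipy 1.17.1 and matplotlib 3.10.9. GENCODE 29 gave transcript types and exon overlaps, and RefSeq the promoters. It typed 119 of the 122 member transcripts, and the others were counted as not protein-coding. Counting errors cover counting alone.

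All 10 members are named. Named pathway genes are those called (at most 6 per list) and the most abundant tested gene of each list. Some genes that these rules name are not reported here. Named transcripts hold at least 10% of a gene or were singled out by their p-value or q-value, and the 3 genes nearest to DEPTOR and DDIT4 were ranked by distance among genes of at least 5 TPM. The members and lists were chosen with earlier results of these data known. Alternatives were a pseudocount of 0.1, no minimum or a minimum of 5 TPM, TPM as deposited, protein-coding genes alone, limma without trend and leaving out each library. For protein-coding genes alone and for each library left out, the factors were computed again from the genes or libraries kept. Ratios within a library and the split by transcript type were added after seeing the data.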

Additional observations from a re-analysis of the deposited data

How the results depend on the processing

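No paired analysis was possible because the control columns carry a name that is in no label, so their numbers match no numbered sample, and no label ties a number to a shared batch or day. TPM carries no depth per library. Summing per symbol was not run, since each member had 1 gene ID. The cause of the differences below was not tested, except that fewer libraries or genes tested follow from the settings themselves.

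With TPM as deposited these log2 fold changes turned negative: DDIT4 (−0.0165), MTOR (−0.0746), RPTOR (−0.0167), AKT1S1 (−0.0144), TSC1 transcript ENST00000298552.3 (−0.0867), MAPKAP1 (−0.160), LAMTOR4 (−0.0753), RPS6 (−0.0448) and SKP1 (−0.0736). RICTOR passed on that scale (−0.59, limma, Benjamini-Hochberg adjusted p = 0.0346). Calls were 3329 of 22651 tested genes (14.7%), of which 7.84% were higher against 64.0% with scaled TPM. They included 0 members higher and 2 lower, and 1 pathway gene higher and 11 lower.

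Among protein-coding genes alone, with factors from those genes, 2746 of 11666 tested genes were called, 51.9% of them higher. These calls held 1 member higher and 2 lower and 10 pathway genes in each direction. There RPTOR was at 0.20 and missed the threshold, and RICTOR passed at −0.37. Without a minimum level 691 of 47371 tested genes were called, with 0 members higher and 2 pathway genes higher and 3 lower. In that setting RPTOR (0.27) and AKT1S1 (0.27) missed the threshold. With a minimum of 5 TPM 2240 of 12613 tested genes were called, 67.5% of them higher. MTOR (0.22) and RICTOR (−0.30) passed there, 2 members were lower and 12 pathway genes were higher. Without the trend 758 genes were called, 0 members in either direction and 3 pathway genes in each, and DEPTOR (−0.30), RPTOR (0.27) and AKT1S1 (0.27) missed the threshold. The pseudocount of 0.1 changed no call of a member. At a q-value under 0.01 the authors' deposited table kept 3 of 7 member transcripts.

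Leaving out 1 library at a time, 118 to 470 genes were called, 0 to 0 members in either direction (6 to 7 members at an unadjusted p under 0.05, limma, beside 22.2% to 28.9% of all genes), and 0 to 2 pathway genes higher and 0 to 1 lower. Log2 fold changes ranged from −0.32 to −0.27 for DEPTOR, 0.24 to 0.29 for RPTOR, 0.24 to 0.30 for AKT1S1, 0.18 to 0.25 for MTOR, −0.33 to −0.24 for RICTOR, 0.18 to 0.35 for DDIT4 and 0.20 to 0.37 for TSC2. MLST8 (−0.0624 to 0.00554), RHEB (−0.0395 to 0.0248), TSC1 (−0.144 to 0.00181) and AKT1S1 transcript ENST00000391834.2 (−0.0862 to 0.0120) changed sign, MLST8 and RHEB without HA-TAZ 3, TSC1 without control a, and the transcript without HA-TAZ 3 or control b.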
